A study of Mus musculus with 29 samples.

Results

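T, Mixl1, Eomes, Fgf8, Evx1, Mesp1, Nkx1-2 and Wnt3 are genes of the primitive streak and of mesendoderm, the shared precursor of mesoderm and endoderm. They were found as every probe whose accession maps to one of these 8 symbols, which gave 13 probes for 8 of the 20956 genes named on the arrays. RNA from cultured mouse cells was hybridised to 29 single-colour Agilent arrays in 9 groups, with 4 arrays each for ADE and NACL and 3 for every other group. All lines are labelled male.

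On the first array set, ESC were naive embryonic stem cells of the HRHnG line in 2i/LIF, a pair of inhibitors (of GSK3 and MEK) with the cytokine LIF. Diff were HRHnG cells after 7 to 8 days in Activin, CHIRON and LIF, labelled as differentiated to primitive endoderm. Mid (passage 7 to 10) and Late (passage 14 to 15) were endoderm cultures called nEnd, grown on from such differentiations, and XEN were extraembryonic endoderm cells of a line of their own. On the second set, ADE were epiblast stem cells of the line spelled HRHNG after 4 days of differentiation to a state the labels call ADE. EpiSC were the stable epiblast stem cell culture, made by differentiating embryonic stem cells of that line. NACL were stem cells kept for at least 3 passages with Activin, Chiron and LIF added to N2B27 medium, and 2iL were stem cells held as long in 2i with LIF. NACL held 2 arrays of the line HVMC and 1 each of E14 and E14-NanogGFP, whereas 2iL held 1 array of each line. The nEnd replicates are separate differentiations according to the design text. For the other groups nothing states what separates the replicates, so p-values measure only the spread between these samples.

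In the embryo the primitive streak is where epiblast cells leave the epithelium to become mesoderm and definitive endoderm. WNT3 and NODAL start it, the T-box factors Brachyury (encoded by T) and EOMES pattern it, and FGF8 helps cells to leave it. High Nodal or Activin activity favours EOMES and endoderm at the anterior end of the streak, whereas Wnt and FGF activity favours T and mesoderm at the posterior end. Primitive endoderm, the origin of XEN cells, arises earlier from the inner cell mass and does not pass through a streak. Activin stands in for Nodal in culture, and CHIRON activates the Wnt pathway by inhibiting GSK3.

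A level below is log2 of the background-corrected signal relative to the 75th percentile of its array, so that 0 is that percentile, and a difference, rise or fall "by" a number is between group means on this log2 scale, while a fold is linear. Levels of different genes come from different probes and were not set against each other. Agilent's software marked 49.2% to 79.7% of the probes of an array as clearly brighter than background, written here as above background. The highest share was that of NACL 4, and replicates of a group correlated at 0.956 or more. The markers of endoderm went with the labels, whereas those of naive cells and of primed epiblast did so only in part. The summed linear level of 6 naive stem cell markers was 6.01 to 6.62 in EpiSC, against 308 to 443 in NACL and 353 to 444 in 2iL. It was 319 to 332 in ESC, but also 48.3 to 60.5 in Mid, 56.3 to 68.1 in Late and 32.8 to 42.2 in XEN. That of 6 primitive and extraembryonic endoderm markers was 328 to 726 over the Diff, Mid, Late and XEN arrays and at most 78.2 elsewhere. All 5 definitive endoderm markers were above background on every ADE array (summed level 230 to 314) and every EpiSC array (6.12 to 7.36). That sum was 36.9 to 46.9 in Mid, 30.6 to 34.6 in Late and 26.7 to 42.7 in XEN. For 5 primed epiblast markers the summed level was 101 to 111 in EpiSC, but 350 to 496 in ADE and 69 to 105 in Diff. The 2 sets differ in slides, scan days and software version, and such differences cannot be told apart from those between their groups, so tests were made within a set.

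Eomes, Fgf8 and Nkx1-2 were above background on all 29 arrays. T was above background on 17 arrays, Evx1 on 12, Mesp1 on 9, Wnt3 on 8 and Mixl1 on 7. Of the members, 7 entered the tests, because a gene was tested where its probe was above background on every array of at least 1 group. Mixl1 passed through ADE alone, and Wnt3 through ADE and EpiSC. Mesp1 passed in no group and is given by its values.

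**Figure D1:**
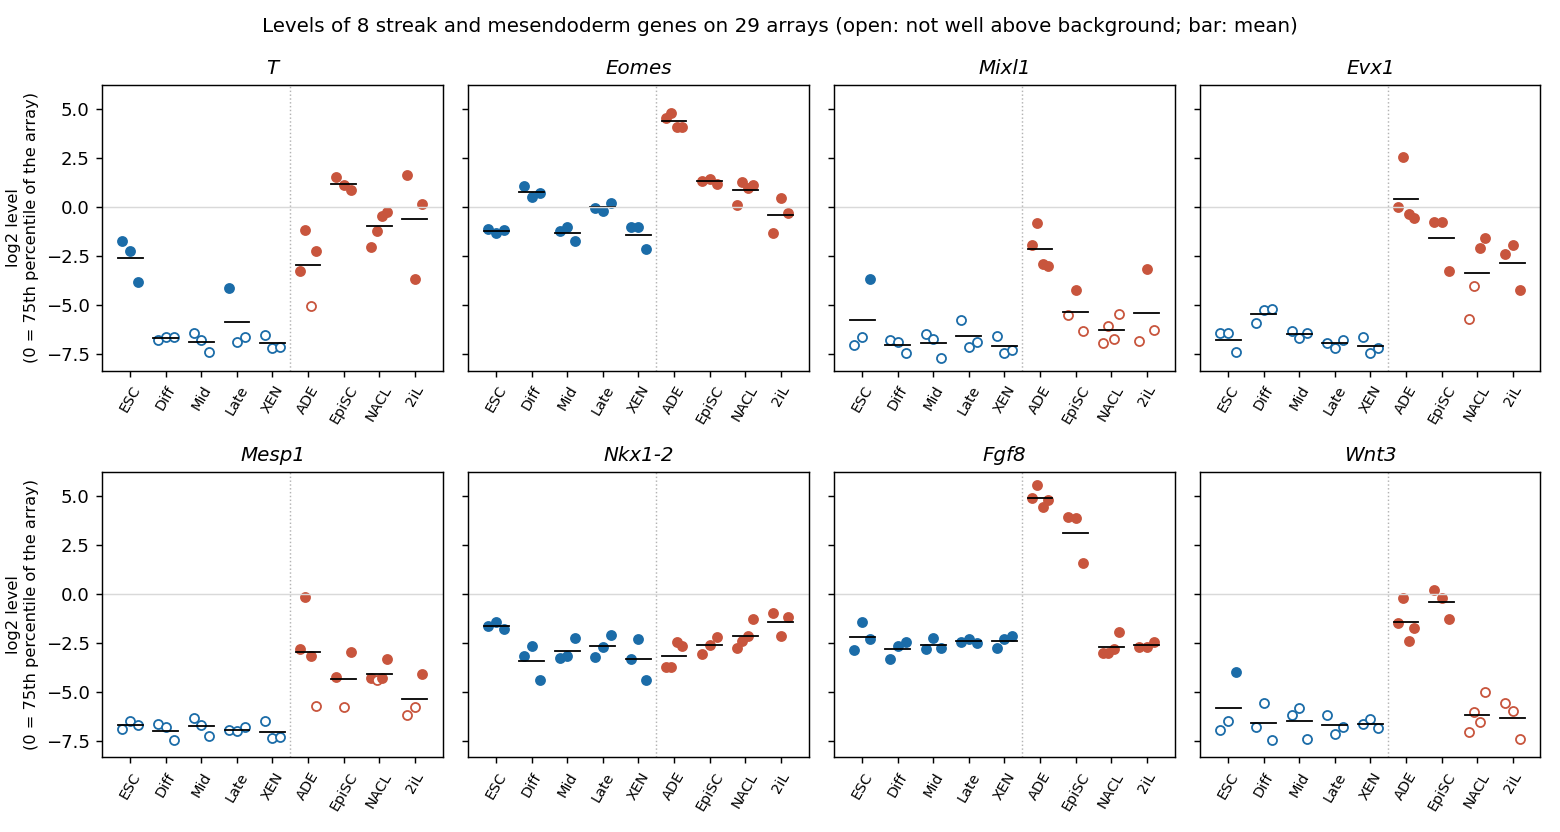
Levels of the 8 genes on each array (log2, 0 being the array's 75th percentile), with filled points above background, open points not, and a bar at each group mean. Blue groups are of the first array set and red groups of the second. T is lower and Eomes higher in Diff than in ESC and in ADE than in EpiSC, Fgf8 and Wnt3 are high in ADE and EpiSC, and Mixl1, Evx1 and Mesp1 lie near the floor in Diff, Mid, Late and XEN.

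T showed its highest mean in EpiSC, with 1.50, 1.11 and 0.85 on the 3 arrays. The means then ran 2iL (-0.62 ± 2.74, SD, n = 3), NACL (-0.99 ± 0.82, n = 4), ESC (-2.61 ± 1.09, n = 3) and ADE (-2.94 ± 1.64, n = 4). T was not above background on any Diff, Mid or XEN array, and of the Late arrays only Late 1, at -4.15, was. Each group overlapped the next in this order.

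Eomes, the T-box factor required for definitive endoderm, which trophoblast also uses, ran in another order. ADE was highest, with 4.53, 4.81, 4.08 and 4.06, and overlapped no other group. EpiSC (1.32 ± 0.13, SD, n = 3), NACL (0.85 ± 0.53, n = 4) and Diff (0.75 ± 0.28, n = 3) came next, each overlapping its neighbour. Late followed at -0.03 ± 0.20, below every Diff array, then 2iL at -0.40 ± 0.88, ESC at -1.22 ± 0.11, Mid at -1.33 ± 0.38 and XEN at -1.41 ± 0.65 (SD, n = 3 each), each overlapping the next.

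The upstream sequences of these 2 T-box genes are shown because T was lower and Eomes higher in both differentiations described here (with 1 limit on T given below). They are the 250 bases before the RefSeq start (GRCm38.p6), which for T are chr17:8434173-8434422 and for Eomes chr9:118477939-118478188, both on the plus strand. Capitals mark matches on either strand to the TCF/LEF letters CTTTGAT or else CTTTGAA or else CTTTGTT, the binding motif of the Wnt pathway's DNA-binding factors, or to the T-box letters AGGTGT.
T: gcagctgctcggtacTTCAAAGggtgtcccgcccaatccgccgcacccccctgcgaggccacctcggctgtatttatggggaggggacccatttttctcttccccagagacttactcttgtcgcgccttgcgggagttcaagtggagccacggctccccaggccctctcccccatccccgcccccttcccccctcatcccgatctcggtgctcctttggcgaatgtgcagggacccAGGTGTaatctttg
Eomes: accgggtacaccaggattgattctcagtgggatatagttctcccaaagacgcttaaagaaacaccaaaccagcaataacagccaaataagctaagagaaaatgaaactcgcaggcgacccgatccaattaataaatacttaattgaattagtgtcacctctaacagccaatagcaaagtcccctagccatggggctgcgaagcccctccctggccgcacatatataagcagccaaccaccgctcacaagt

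The T sequence held a TCF/LEF match 235 to 229 bases before the start, on the minus strand, and a T-box match 14 to 9 bases before it. The Eomes sequence held neither set of letters in this window. Entries were found for 6 of the 8 members, and of these T and Mesp1 held a TCF/LEF match and T, Evx1 and Mesp1 a T-box match. Among all 32851 entries, 12% held a TCF/LEF match and 11.8% a T-box match.

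Fgf8, a secreted growth factor, was high in ADE (4.90 ± 0.47, SD, n = 4) and EpiSC (3.11 ± 1.33, n = 3), with no overlap between these groups or with any other. The other 7 group means lay between -2.83 in Diff and -2.22 in ESC and overlapped their neighbours. Wnt3, the Wnt ligand that starts streak formation, was highest in EpiSC (-0.44 ± 0.76, n = 3), with ADE (-1.47 ± 0.93, n = 4) overlapping it. Outside these groups only ESC 3, at -3.99, was above background for Wnt3.

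Mixl1, a homeobox gene of the streak and early endoderm, was above background on every ADE array (-2.17 ± 1.03, SD, n = 4). Elsewhere it was so on 1 array each of EpiSC, 2iL and ESC, and the ADE arrays lay above every EpiSC array, the next group. Evx1, a homeobox gene of the posterior streak, was highest in ADE (0.40 ± 1.46, n = 4), followed by EpiSC (-1.60 ± 1.44, n = 3), 2iL (-2.87 ± 1.23, n = 3) and NACL (-3.36 ± 1.90, n = 4). It was not above background on any array of the first set.

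Mesp1, a basic helix-loop-helix gene of nascent mesoderm, was likewise not above background on any array of the first set. On the second set its mean was -2.98 ± 2.29 in ADE (SD, n = 4), -4.34 ± 1.41 in EpiSC (n = 3), -4.09 ± 0.49 in NACL (n = 4) and -5.37 ± 1.11 in 2iL (n = 3), and these ranges overlapped. Nkx1-2, a homeobox gene of the caudal epiblast beside the streak, had, by its brightest probe, its highest means in 2iL (-1.45 ± 0.62) and ESC (-1.64 ± 0.16) and its lowest in Diff (-3.42 ± 0.87; SD, n = 3 each), and every group overlapped the next in order.

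Between Diff and ESC, the differentiation of naive cells in Activin, CHIRON and LIF, 3 of the 7 tested members were called. Of these calls only that of Eomes held under every other way of processing tried on it. Eomes had no row for its probe in the authors' deposited normalized values, so it was not tried there. T was at -6.79, -6.62 and -6.65 on the Diff arrays and at -1.75, -2.25 and -3.83 on the ESC arrays. No Diff array was above background and every ESC array was, so T was at least 4.42-fold lower in Diff (fitted difference -4.07 ± 0.99 SE, adjusted p = 0.0018 in limma's fit with Benjamini-Hochberg adjustment over all genes). With normexp background correction the difference was -0.67 (adjusted p = 0.28), and in the authors' deposited normalized values it was -0.88 (adjusted p = 0.22), so the call ended under both. The normexp correction used here adds an offset of 50 units to every signal, which shrinks log2 differences between dim signals. Within the slide that held both groups the difference was -4.62. Of all genes tested, 43.3% were called in this comparison, and 3 of 7 is near that share. In bulk RNA, fewer cells of a type and less RNA per cell cannot be told apart.

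Eomes moved the other way. Diff arrays read 1.06, 0.51 and 0.69 and ESC arrays -1.13, -1.34 and -1.18, with no overlap. The rise was 1.97 ± 0.36 (SE, adjusted p = 0.00011), and it was 1.75 within the slide that held both groups. For 6 markers of trophoblast, a cell type that also uses Eomes, the summed level was 64 to 174 in Diff and 47.5 to 77.9 in ESC. Gcm1 made up most of this sum on every array of the series. Of the 6, 4 were above background on every Diff array and 2 (Gcm1 and Cdx2) on every ESC array. Plac1 and Hand1 were so on all 3 Diff arrays and no ESC array, and Cdx2 was at 0.76, -0.64 and -0.82 in Diff and -3.92, -3.50 and -3.30 in ESC. Elf5 and Tpbpa were above background on no Diff array. The part of such cells in the Eomes result was not tested.

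Nkx1-2 read -3.20, -2.68 and -4.39 in Diff and -1.66, -1.47 and -1.79 in ESC, and fell by 1.78 on the log2 scale (SE 0.52, adjusted p = 0.007). The difference was -1.11 within the slide that held both groups and -0.87 with the slide as a block (adjusted p = 0.043), and without Diff 3 it was -1.30 (adjusted p = 0.061). The second probe of the gene went the other way, at -3.24, -3.00 and -2.35 in Diff and -3.62, -5.11 and -5.23 in ESC (difference 1.79 ± 0.66 SE, adjusted p = 0.041 over 27636 probes). The mean of its probes gave -0.47 (adjusted p = 0.47), so no direction holds for the gene.

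**Figure D2:**
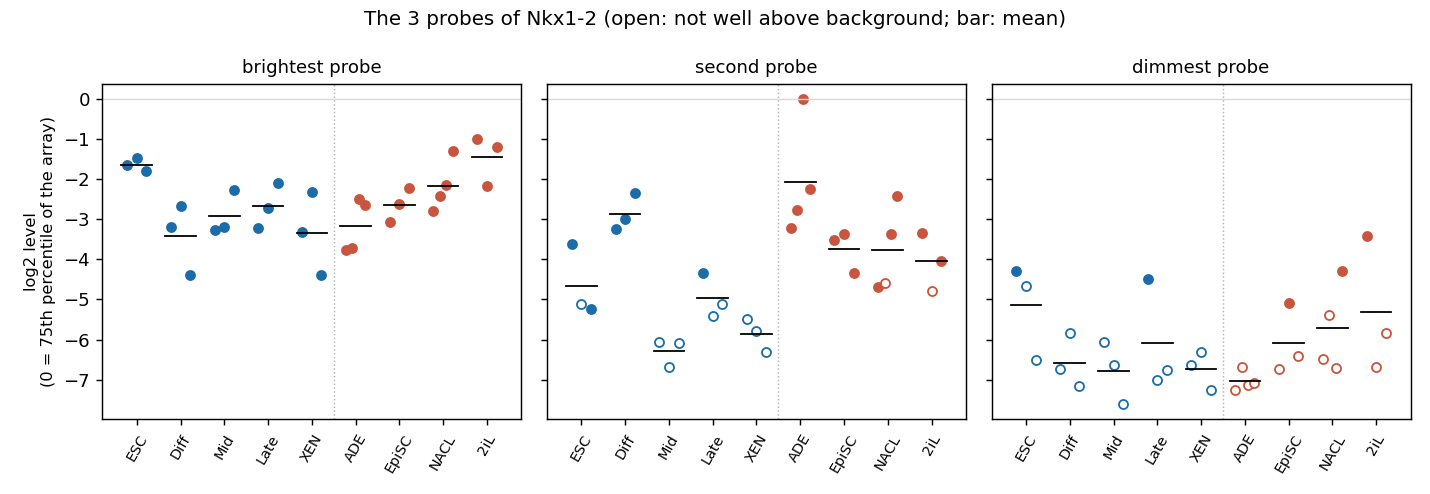
Levels of Nkx1-2 by its 3 probes on each array (log2, 0 being the array's 75th percentile), with filled points above background, open points not, and a bar at each group mean; blue groups are of the first array set and red of the second. The brightest probe is lower in Diff than in ESC and the second probe is higher.

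Fgf8 (-0.61 ± 0.46 SE, adjusted p = 0.3), Mixl1, Evx1 and Wnt3 did not pass the test between Diff and ESC. Neither Evx1 nor Mesp1 was above background on any array of either group. Mixl1 and Wnt3 each had 1 ESC array above background, ESC 3, and no Diff array.

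Genes that neighbour the members in the streak were followed in 4 lists. Their counts between Diff and ESC stand beside 43.3% called over all genes tested. Of 13 tested genes of the anterior streak, node and definitive endoderm, 7 were higher and 1 lower in Diff than in ESC (median difference 2.60, against -0.09 over all genes tested). Sox17 rose at least 713-fold, Gata6 by 9.88 and Foxa2 by 9.82, all endoderm transcription factors that primitive endoderm uses too. Gata6 and Foxa2 were each above background on 1 of 3 ESC arrays, so these sizes rest partly on signal at background. Gsc, a homeobox gene of the anterior streak, fell by 5.11 (SE 0.51, adjusted p = 3.6e-08), with 1 of 3 Diff arrays above background.

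Of 17 tested posterior streak and paraxial mesoderm genes, 4 were higher and 3 lower in Diff (median 0.42), near the share over all genes. Cyp26a1, an enzyme that degrades retinoic acid, rose by 7.66, with 2 of 3 ESC arrays above background. Of the list's transcription factors, Sp5 fell by 5.63 and Cdx1 fell by 4.83, while Cdx2 rose by 3.34. Of 14 tested mesoderm genes 7 were higher and 1 lower (median 0.83). They were led by Pdgfra, a growth factor receptor that primitive endoderm also carries, at least 393-fold higher in Diff. Etv2, a blood and vessel factor, fell by 3.49, with 2 of 3 Diff arrays above background.

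Among 25 signals, receptors and readouts, 8 were higher and 7 lower in Diff (median -0.35). Dkk1, a secreted Wnt inhibitor, rose by 8.50, and Wls, which Wnt secretion needs, rose by 4.29. Fgf4, the FGF ligand of naive cells, fell by 3.97, and its receptor gene Fgfr1 fell by 2.88. The summed level of the 6 naive stem cell markers was 81.4 to 143 in Diff and 319 to 332 in ESC, and all 6 were above background on every array of both groups.

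On passage, Eomes was the 1 member of 7 called between Mid and Diff, where 28.9% of all genes tested were called. Mid arrays read -1.22, -1.01 and -1.74 and Diff arrays 1.06, 0.51 and 0.69. The fall was 2.08 on the log2 scale (SE 0.36, adjusted p = 0.00016), and the difference was -1.53 and -2.28 within the slides that held both groups. The Mid arrays overlapped those of ESC. T, Mixl1, Evx1, Wnt3 and Mesp1 were above background on no array of Mid or Diff. By its brightest probe Nkx1-2 differed by 0.51 (SE 0.52, adjusted p = 0.51). Its second probe fell by 3.42 (SE 0.66, adjusted p = 0.00065 over 27636 probes), from 3 of 3 Diff arrays above background to 0 of 3 Mid arrays.

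Of the 14 mesoderm genes 4 were lower, 1 higher (Tbx20, a T-box gene of the heart, 1.96) and 9 not called in Mid against Diff (median -1.07, against -0.03 over all genes). Hand1, a transcription factor of lateral mesoderm and trophoblast, was at least 3.57-fold lower, and Twist1, a factor of mesenchyme, at least 4.46-fold lower. Of the 25 signalling genes 10 were lower and 4 higher (median -1.12). Fgf4 fell by 6.37, Lefty1, a Nodal target and inhibitor, fell by 5.92, and Wls fell by 4.69. Fgf4 and Lefty1 were each above background on 1 of 3 Mid arrays and Wls on 2 of 3. These sizes therefore rest partly on signal at background. In the anterior list 2 of 13 were lower and in the posterior list 2 of 17 lower and 1 higher. The share called over all genes tested was 28.9%. The summed trophoblast level was 19.5 to 83.8 in Mid and 64 to 174 in Diff. Hand1 was above background on no Mid array and all 3 Diff arrays, Elf5 on all 3 Mid arrays (-1.84, -3.73 and -2.21) and no Diff array, and Plac1 and Cdx2 on every array of both groups. The part of such cells was not tested.

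Between Late and Mid, Eomes was again the 1 member called, where 7.01% of all genes were. Late arrays read -0.04, -0.22 and 0.18 and lay above the Mid arrays at -1.22, -1.01 and -1.74. The rise was 1.30 ± 0.36 (SE, adjusted p = 0.032), and 0.99 and 1.18 within the slides that held both groups. The call was lost in 8 of 13 alternatives, among them the slide as a block (1.21, adjusted p = 0.057) and the mean of both Eomes probes (1.37, adjusted p = 0.054). It was lost without Mid 1 (adjusted p = 0.081), Mid 3 (0.11), Late 1 (0.099) or Late 3 (0.13). The summed trophoblast level was 43.8 to 49.3 in Late and 19.5 to 83.8 in Mid. In the 4 lists, the test called 1 of 13 anterior genes lower (Foxj1, a cilia gene, -2.38), none of 14 mesoderm or 17 posterior genes, and 1 higher and 1 lower of the 25 signalling genes.

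Against XEN cells, none of the 7 members was called in nEnd (Mid and Late at equal weight), where 40.8% of all genes were. Eomes had the lowest p, with a difference of 0.73 ± 0.32 (SE, unadjusted p = 0.029, adjusted p = 0.067), and was the 1 member with an unadjusted p under 0.05. It passed the threshold with the mean of its probes (0.95, adjusted p = 0.044), without Mid 3 (0.84, adjusted p = 0.044) and, before rounding, without XEN 2 (0.92, adjusted p = 0.05). The summed trophoblast level was 19.5 to 83.8 in Mid, 43.8 to 49.3 in Late and 8.79 to 20.9 in XEN. Fgf8 differed by -0.09 (95% interval -0.92 to 0.74). T was above background on 1 of the 6 nEnd arrays and no XEN array, which gives no measured difference. Posterior genes were 3 higher and 3 lower of 17 tested. Cdx2 rose by 3.05 and Tbx6, a T-box gene of paraxial mesoderm, by 2.54, whereas Fst, which encodes an Activin inhibitor, fell by 2.97.

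Between ADE and EpiSC, the differentiation of primed cells, 4 of 7 tested members were called, where 37.9% of all genes tested were called. Mixl1, which entered the tests through ADE alone, is among them. T read -3.27, -1.20, -5.04 and -2.25 in ADE and 1.50, 1.11 and 0.85 in EpiSC. Every ADE array lay below every EpiSC array, and ADE 3 was not above background. T fell by 4.09 on the log2 scale (SE 0.93, adjusted p = 0.0011), with -3.73 and -4.63 within the 2 slides. Eomes rose in all 4 ADE arrays over 1.34, 1.43 and 1.18 in EpiSC, by 3.05 ± 0.34 (SE, adjusted p = 2.5e-07), and by 3.33 and 2.76 within the slides. The summed definitive endoderm marker level was 230 to 314 in ADE and 6.12 to 7.36 in EpiSC, and that of trophoblast 30.6 to 41.8 in ADE and 5.78 to 29.4 in EpiSC. Of the trophoblast markers, Elf5 was at 0.60, 1.02, -0.45 and -1.15 in ADE and above background on no EpiSC array, whereas Cdx2 was at -2.29, -4.09, -2.84 and -3.17 in ADE and 0.46, 0.35 and -1.66 in EpiSC. Tpbpa was above background on no array of either group. The part of such cells was not tested.

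Mixl1 read -1.92, -0.82, -2.89 and -3.03 in ADE and -5.54, -4.25 and -6.35 in EpiSC, where EpiSC 2 alone was above background. It rose by 3.22 ± 0.79 (SE, adjusted p = 0.0023), with 4.17 and 2.34 within the 2 slides. With normexp correction the difference was 1.00 and in the authors' deposited normalized values 1.17, and none of 15 alternatives ended the call. Mixl1 entered the tests through ADE alone, the group where it is high. Its p-values are therefore no separate evidence, and with most EpiSC arrays at background the size is not a measured one. Fgf8 read 4.86, 5.56, 4.43 and 4.77 in ADE and 3.91, 3.85 and 1.58 in EpiSC, with EpiSC 3 far below its replicates. It rose by 1.79 ± 0.43 (SE, adjusted p = 0.0019). The difference was 1.30 and 1.89 within the slides, and its call missed the threshold with the arrays of these groups alone (adjusted p = 0.051).

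Evx1 read -0.03, 2.56, -0.35 and -0.58 in ADE and -0.75, -0.78 and -3.26 in EpiSC. The groups did not overlap, and the difference of 2.00 ± 0.82 (SE) had an adjusted p of 0.059. It passed with normexp correction (1.42, adjusted p = 0.0071) and in the authors' deposited normalized values (1.61, adjusted p = 0.0066). Wnt3 read -1.52, -0.20, -2.41 and -1.74 in ADE and 0.18, -0.22 and -1.29 in EpiSC. These overlapped, with a difference of -1.02 ± 0.66 (SE, adjusted p = 0.25), while the authors' deposited normalized values gave -0.79 (adjusted p = 0.02). Mesp1 spread widest, at -2.85, -0.15, -3.20 and -5.74 in ADE and -4.23, -5.80 and -3.00 in EpiSC. Fitted without the filter on dim probes it differed by 1.36 ± 0.80 (SE, adjusted p = 0.24). Nkx1-2 differed by -0.52 ± 0.48 (SE, adjusted p = 0.45) by its brightest probe. Its second probe gave 1.67 ± 0.62 (SE, adjusted p = 0.046 over 27636 probes).

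Single arrays stood high or low for several members at a time. ADE 2 was the highest of the ADE arrays for 7 of the 8 members, and EpiSC 3 the lowest of the EpiSC arrays for 6. ADE 2 also had the highest summed level of the 5 primed epiblast markers in its group, 496 against 350 to 380 on the other ADE arrays. EpiSC 3 had the highest summed level of these markers among the EpiSC arrays, which ranged from 101 to 111. Without EpiSC 3 the Fgf8 difference between ADE and EpiSC was 1.03 (adjusted p = 0.031). The calls of T, Mixl1, Eomes and Fgf8 in that comparison held when any 1 array was left out.

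**Figure D3:**
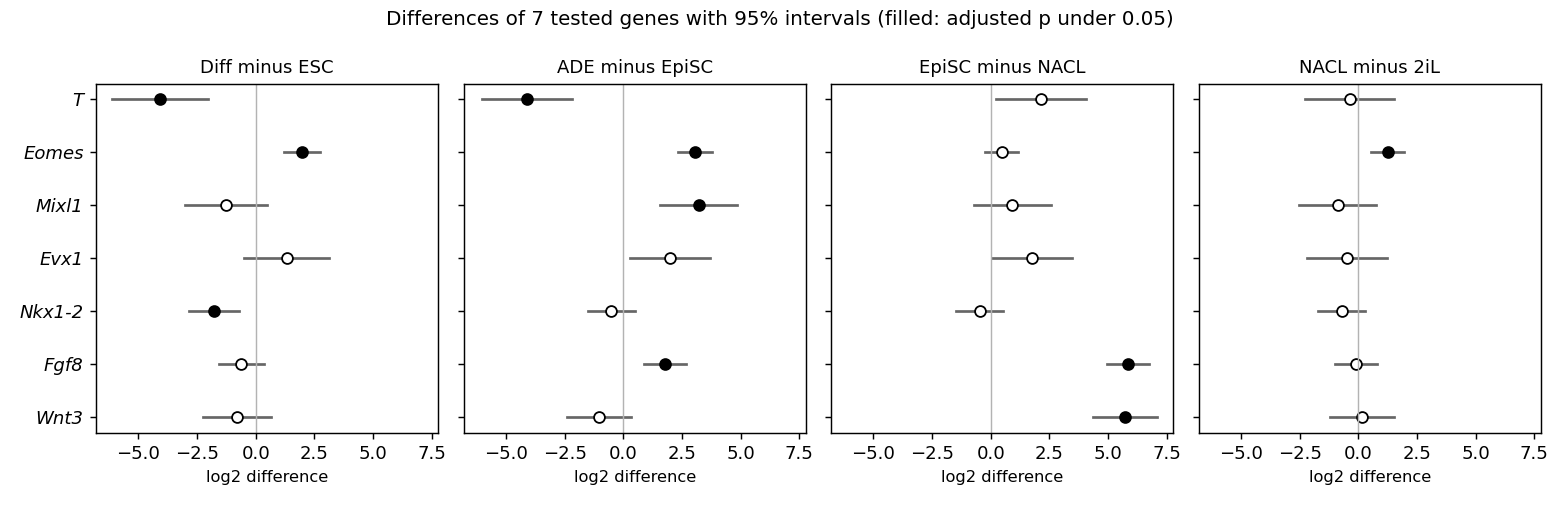
Differences in group mean (log2) of the 7 tested genes in 4 comparisons, with 95% intervals from the fit and filled points where the adjusted p is under 0.05. T lies below 0 and Eomes above 0 both for Diff minus ESC and for ADE minus EpiSC, while Fgf8 and Wnt3 stand out for EpiSC minus NACL.

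The 4 lists gave unlike counts between ADE and EpiSC, where 37.9% of all genes tested were called. In the anterior list 11 of 13 tested genes were higher in ADE and none lower (median 5.12, against -0.06 over all genes). Cer1, a secreted Nodal and Wnt inhibitor, rose by 6.53, and the endoderm factors Hhex and Gata6 each rose by 6.04. In the posterior list 6 of 17 were lower and 3 higher (median -0.55). The zinc finger gene Sp8 fell by 6.24 and the Wnt ligand gene Wnt8a fell by 5.89, while Cyp26a1 rose by 4.82 and the Notch ligand gene Dll1 by 2.63. Sp8 was above background on 2 of 4 ADE arrays and Wnt8a on 3 of 4, so both falls rest partly on signal at background. Mesoderm genes were 3 higher and 2 lower of 14, which is near the share over all genes. Hand2 (3.23, with 1 of 3 EpiSC arrays above background) and Bmp4 (-2.45) were at the ends. Signalling genes were 8 higher and 4 lower of 25, led by Dkk1 (5.02) and the Wnt receptor partner Lgr5 (4.65), with Fgf4 (-3.72) lowest.

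The responses of naive and primed cells were set against each other as Diff minus ESC, less ADE minus EpiSC. Length of differentiation (7 to 8 days in Diff, 4 in ADE), array set and spelling of the line differ too. They cannot be told apart from the starting state. Of the 7 members 2 were called, where 36.6% of all genes tested were. Mixl1 gave -4.47 ± 1.15 (SE, adjusted p = 0.0038), being above background on every ADE array and no Diff array. Mixl1 entered the tests through ADE alone, and its Diff and ESC levels were at background on all arrays but ESC 3, so the size is not a measured one. It was -1.26 with normexp correction (adjusted p = 0.0044) and -1.33 in the authors' deposited normalized values (adjusted p = 0.0067). Fgf8 gave -2.41 ± 0.63 (SE, adjusted p = 0.0044), with -0.61 from Diff minus ESC and 1.79 from ADE minus EpiSC. Eomes gave -1.08 ± 0.50 (SE, adjusted p = 0.096). T gave 0.02 (95% interval -2.79 to 2.83), a value that rests on Diff arrays that were not above background. With normexp correction it was 1.66 (adjusted p = 0.043), and in the authors' deposited normalized values 1.96 (adjusted p = 0.043), as the fall in Diff was smaller there. Eomes passed with the 4 groups alone (adjusted p = 0.013) and with normexp correction (-1.34, adjusted p = 0.0045).

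Primed and naive stem cell states were compared within the second set, where EpiSC minus 2iL and EpiSC minus NACL share the EpiSC arrays and the lines differ between groups. Against 2iL, 3 of 7 members were called, and 42.1% of all genes were called. Fgf8 read 3.91, 3.85 and 1.58 in EpiSC and -2.70, -2.70 and -2.46 in 2iL, a difference of 5.73 ± 0.46 (SE, adjusted p = 1e-09), with 6.61 and 5.18 within the 2 slides. A second Fgf8 probe gave 5.75 ± 0.64 (SE, adjusted p = 2.3e-07). Wnt3 read 0.18, -0.22 and -1.29 in EpiSC and was not above background on any 2iL array, which put it at least 25.9-fold higher in EpiSC (adjusted p = 4.6e-07). With normexp correction the Wnt3 difference was 1.98 (adjusted p = 1.9e-06). Wnt3 entered the tests through ADE and EpiSC alone, where it is high, so its p-values and its place in the count are no separate evidence. Eomes was higher by 1.72 ± 0.36 (SE, adjusted p = 0.00053), with 1.78 and 1.63 within the slides. T differed by 1.78 ± 0.99 (SE, adjusted p = 0.16), and by 2.91 without 2iL 1 (adjusted p = 0.025). By its brightest probe Nkx1-2 differed by -1.18 ± 0.52 (SE, adjusted p = 0.07), and by -1.48 with the slide as a block (adjusted p = 0.00042).

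Against NACL, 2 of 7 members were called and 42.2% of all genes. Fgf8 was 5.83 ± 0.43 higher in EpiSC (SE, adjusted p = 3.4e-10), with NACL arrays at -3.05, -3.04, -2.83 and -1.97. Wnt3 was at least 19.5-fold higher (adjusted p = 3.1e-07). Within the 2 slides the Fgf8 differences were 6.88 and 4.68. With normexp correction the Wnt3 difference was 1.76 (adjusted p = 5.1e-06). The limit on the Wnt3 p-values given for 2iL holds here too, as no NACL array was above background for it. On both slides every EpiSC array lay above every NACL and every 2iL array for Wnt3. Eomes, by contrast, differed by 0.46 (95% interval -0.24 to 1.17) between EpiSC and NACL. T was at 1.50, 1.11 and 0.85 in EpiSC and at -2.05, -1.23, -0.44 and -0.26 in NACL. Those arrays did not overlap, and the difference of 2.15 ± 0.93 (SE) had an adjusted p of 0.066. It passed with normexp correction (1.55, adjusted p = 0.0059), in the authors' deposited normalized values (1.77, adjusted p = 0.0078) and with these groups alone (adjusted p = 0.0088).

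Beside the Wnt3 and Fgf8 results, 5 fibroblast (feeder) markers had a summed level of 14.7 to 21.9 in EpiSC, 3.32 to 15.7 in ADE, 2.63 to 16.3 in NACL and 1.53 to 2.45 in 2iL. All 5 were above background on every EpiSC array, against 3 of 5 on every array of ADE, of NACL and of 2iL. Postn was above background on no 2iL array. The part of such cells in the EpiSC results was not tested. The sums differ in make-up. Col1a2 was at 3.56, 3.69 and 3.09 in EpiSC, at 2.55, 1.59, 3.95 and 2.53 in ADE, at -1.96, -1.77, -1.17 and -1.24 in NACL, and at -1.76, -2.10 and -1.05 in 2iL. Thy1, by contrast, was at -0.35, -0.36 and 0.68 in EpiSC and at 2.61, 2.92, 3.94 and 0.84 in NACL.

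Posterior streak genes were higher in EpiSC than in 2iL for 9 of 17 tested and lower for 3 (median 1.21, against -0.04 over all genes). The Wnt agonist gene Rspo3 was at least 35.8-fold higher, Cyp26a1 rose by 5.88 and Wnt8a by 5.79, whereas Cdx1 fell by 8.07 and Sp5 by 2.56. Cyp26a1 was above background on 1 of 3 2iL arrays and Wnt8a on 2 of 3. Anterior genes were higher for 8 of 13 and lower for 1, with Foxa2 at least 108-fold and Cer1 at least 52.2-fold higher. Signalling genes were higher for 8 of 25 and lower for 3. The Wnt pathway readouts Axin2 (-3.55) and Notum (-1.61) and the ligand gene Fgf4 (-4.50) were lowest. Mesoderm genes were higher for 5 of 14 and lower for 1. Over all genes tested 42.1% were called, and the signalling and mesoderm counts are near that share. Against NACL the counts were 9 higher and 2 lower of 17 posterior genes, 6 and 1 of 13 anterior genes, 8 and 7 of 25 signalling genes, and 3 and 1 of 14 mesoderm genes. The share over all genes there was 42.2%.

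Stable culture in Activin, Chiron and LIF was compared with 2i and LIF as NACL minus 2iL. Eomes was the 1 member of 7 called, where 8.54% of all genes were. It read 0.08, 1.28, 0.94 and 1.11 in NACL and -1.31, 0.44 and -0.32 in 2iL, ranges that overlapped. The rise was 1.25 ± 0.34 (SE, adjusted p = 0.022), and 1.20 and 1.43 within the 2 slides. The call was lost in 7 of 15 alternatives, among them the cell line as a block (1.38, adjusted p = 0.2). It was lost without 2iL 1 (0.79, adjusted p = 0.22), 2iL 3 (adjusted p = 0.055), NACL 2 (0.077) or, before rounding, NACL 3 (0.05).

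The lines did not move alike. Eomes was higher in NACL in each line, by 1.99 in HVMC, 0.50 in E14 and 1.43 in E14-NanogGFP. T read -2.05 and -1.23 in NACL against 1.65 in 2iL for HVMC, and -0.44 against -3.67 for E14, a difference of -3.28 for the first line and 3.23 for the second. In E14-NanogGFP T differed by -0.42. Evx1 differed by -2.46 in HVMC, -0.15 in E14 and 2.68 in E14-NanogGFP. Mesp1 was higher in NACL in each line, by 1.86, 1.48 and 0.75, with 2iL 3 the only 2iL array above background. Each line had 1 array in 2iL, so these differences within lines have no replicate check. NACL 4, of E14-NanogGFP, was the highest NACL array for 7 of 8 members, and NACL 1, of HVMC, the lowest for 7.

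**Figure D4:**
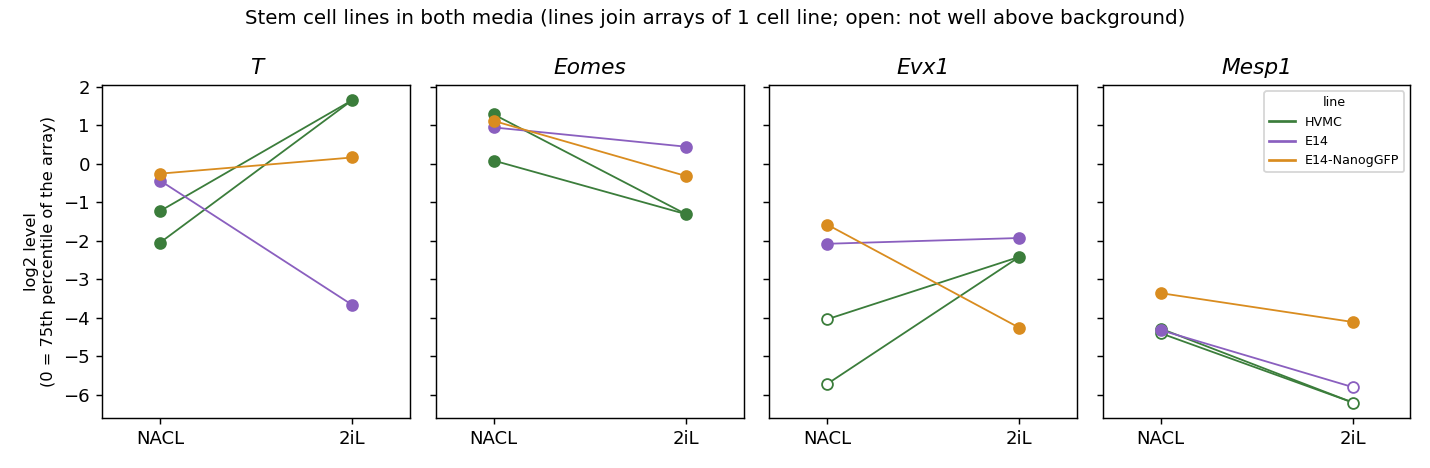
Levels of T, Eomes, Evx1 and Mesp1 (log2, 0 being the array's 75th percentile) in NACL and 2iL, with lines joining arrays of the same cell line, filled points above background and open points not. Eomes is higher in NACL in all 3 lines, whereas T is lower in NACL in HVMC and higher in E14.

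Between NACL and 2iL, anterior genes were 3 higher (Gata6, Foxj1 and Sox17) and 1 lower (Gsc, -4.09 ± 0.48 SE) of 13. Gsc was above background on 2 of 4 NACL arrays, Gata6 on 1 of 3 2iL arrays and Foxj1 on no 2iL array. Posterior genes were 2 higher and 1 lower of 17, signalling genes 2 higher and 2 lower of 25, and mesoderm genes 0 of 14. The share called over all genes tested was 8.54%.

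Activin, CHIRON and LIF were used both on differentiating cells (Diff) and on stable cultures (NACL), and the 2 responses were compared as Diff minus ESC, less NACL minus 2iL. T was the 1 member of 7 called, where 31% of all genes were, with -3.70 ± 1.36 (SE, adjusted p = 0.041). The call was lost in 16 of 22 alternatives, among them normexp correction (-0.18, adjusted p = 0.85), the authors' deposited normalized values (-0.36, adjusted p = 0.77) and the cell line as a block (-3.60, adjusted p = 0.085). T was above background on no Diff array. Eomes gave 0.72 (95% interval -0.31 to 1.75). HRHnG is not among the lines of NACL and 2iL, so line and response cannot be told apart here.

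Other probes of the members bear on these levels. Both Eomes probes ran the same way in every comparison called for the gene, the second with 2.52 for Diff minus ESC and 3.21 for ADE minus EpiSC. The second probe missed the threshold over 27636 probes for Late minus Mid (1.45, adjusted p = 0.13) and NACL minus 2iL (1.60, adjusted p = 0.056). The brightest Fgf8 probe stayed above background in the groups where the gene was low, while the second was above background on no Diff or Mid array, on 1 of 3 arrays each of Late, XEN and 2iL, on 2 of 3 of ESC and on 2 of 4 of NACL. That second probe averaged 2.78 in ADE and 1.00 in EpiSC and at most -4.44 elsewhere. For ADE minus EpiSC it gave 1.78 (adjusted p = 0.028 over 27636 probes), and the third, dimmest Fgf8 probe gave 1.56 (adjusted p = 0.12). The third probe gave 2.10 for EpiSC minus 2iL (adjusted p = 0.039) and 1.76 for EpiSC minus NACL (adjusted p = 0.065). What keeps the brightest Fgf8 probe above background outside ADE and EpiSC was not tested.

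Over the 9 group means, Fgf8 and Wnt3 correlated at 0.961 and Eomes and Evx1 at 0.854, whereas T and Eomes correlated at 0.351 and Nkx1-2 and Eomes at -0.279. These points share array sets and cell lines and are a description. Among the other tested genes whose means spanned at least 2 log2 units, Chst2 was most like T (r = 0.988), Lrtm2 most like Mixl1 (0.986), and Rtn4r most like Eomes (0.966). Prdm8 was most like Fgf8 (0.995), Fbxl7 most like Evx1 (0.979), and Pcdh18 (0.998), followed by Col1a2 (0.995), most like Wnt3. Col1a2 is one of the 5 fibroblast markers. For Nkx1-2 it was Tmem191c (0.975), by the brightest probe alone.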

How the data were processed

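The authors deposited scanner files with the intensity of each spot, background-corrected by Agilent Feature Extraction (version 9.1 per the submitters' processing notes; 11.0.1.1 for the first array set and 12.0.1.1 for the second per the file headers), and a table of normalized values whose log base and normalization are not given in the sources used here. Per its values that table was taken to be on a log2 scale with its columns already equalised and no gene centring: the authors' columns had medians of 5.94 to 5.949 and correlated at 0.909 to 0.937 with the log2 scanner signal. It held the chosen probes of 5 members and served only as an alternative.

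Irregular spots (132 to 243 of 59305 an array) were left out, spots of a probe averaged, and log2 of the deposited intensity was taken relative to each array's 75th percentile (152.2 to 366.5 units). No probe was saturated, and precision is set by how many arrays a group has. Of 55681 probes, 27636 were named through their accession and RefSeq (GRCm38.p6, names only; the array design is on mm9 per the file headers). Where a gene had several probes, the brightest on average stood for it, and 16333 genes were tested. limma 3.58.1 (R 4.3.3) fitted 9 group means over all arrays, with Benjamini-Hochberg adjustment over all genes tested and calls at 0.05. The script was tested on simulated data. A fold written as "at least" sets the brighter group's mean against the dimmer one's, with each dim array raised to its lowest signal among probes above background. A marker list's summed level adds the linear levels of its markers. Promoter sequences are RefSeq's. Text and figures name all members, the 3 genes most like each by correlation or the first of them, and up to 3 called list genes in each direction; some list genes are not reported here. The members and lists were chosen with earlier results of these data known.

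Replicate numbers were taken to pair samples only for Late and Mid, where same-numbered arrays deviated together in every pair (r 0.129 to 0.216). Late 1 and Mid 1 share a slide, as do Late 2 and Mid 2, and slide and pairing cannot be told apart there. The main fit held no term for pairs.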

Additional observations from a re-analysis of the deposited data

Results flagged for a closer look

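Mesp1 on NACL 4 (E14-NanogGFP) was at -3.36, apart from the other NACL arrays at -4.28, -4.40 and -4.32, its gap being 0.889 of the group's range. Chance marks about 1 in 20 such groups. The rule was run on each of the 8 members in both ADE and NACL, so a single flag is about what chance gives. NACL 4 was also the array with the highest share of probes above background.

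Diff minus ESC, less ADE minus EpiSC, was called for Mixl1 (-4.47) and Fgf8 (-2.41). Starting state cannot be told apart there from length of differentiation, array set or spelling of the line. For Mixl1 the value ran from -5.11 to -1.26 over the alternatives, and no Diff array was above background. The responses to Activin, CHIRON and LIF differed for T (-3.70) between differentiating HRHnG cells and stable cultures of other lines, tested as Diff minus ESC, less NACL minus 2iL. That call was lost in 16 of 22 alternatives, with values from -4.83 to -0.18, and T was above background on no Diff array.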

How the results depend on the processing

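No call among the members changed direction under the alternatives run, although the second Nkx1-2 probe, which was no such alternative, gave 1.79 for Diff minus ESC where the gene's value was -1.78. In the authors' deposited normalized values, where Eomes, Fgf8 and Nkx1-2 had no row for their probe, the members called numbered 0 between Diff and ESC (3 in the scanner values), 0 between Mid and Diff (1), 0 between Late and Mid (1), 0 between NACL and 2iL (1), 1 between EpiSC and 2iL (3) and 0 for T in Diff minus ESC, less NACL minus 2iL (1). Median centring gave 0 between Late and Mid, 0 between NACL and 2iL and 0 for that second difference of responses. The groups compared alone gave 2 between Mid and Diff (Evx1 added, -1.03) and 0 for those same 3 comparisons, and the slide as a block 0 between Late and Mid. The mean of a gene's probes gave 0 between Late and Mid and 1 between nEnd and XEN (0 in the main setting). Normexp correction gave 4 for the naive against the primed response (2) and 0 for Diff minus ESC, less NACL minus 2iL, as did no filter, the cell line block and the replicate block. The cell line as a block gave 0 between NACL and 2iL. The cause of these changes was not tested, other than the missing rows.

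Leaving out 1 array gave 4 to 5 members between ADE and EpiSC, 2 to 3 between Diff and ESC, 3 to 4 between EpiSC and 2iL, 2 to 3 between EpiSC and NACL, 1 between Mid and Diff, 2 for the naive against the primed response, and 0 to 1 for Late and Mid, NACL and 2iL, nEnd and XEN, and Diff minus ESC, less NACL minus 2iL. With the replicate block, Eomes between Late and Mid, where same-numbered arrays were taken as pairs, kept 1.30 (adjusted p = 0.043). The block added Evx1 between EpiSC and NACL (2.35, adjusted p = 0.032) and between ADE and EpiSC (2.32, adjusted p = 0.024), where samples share only a number.

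Over all genes, calls between Mid and Diff numbered 4724, against 2950 with median centring and 2726 with these groups alone. Between Late and Mid they numbered 1145 (610 higher, 535 lower), against 391 (96, 295) with median centring, 265 (82, 183) with these groups alone, and 425 to 696 without Mid 1, Mid 2, Late 1 or Late 3. Between NACL and 2iL they numbered 1395, against 868 with median centring, 446 with these groups alone, 236 with the cell line as a block and 827 without 2iL 1. Median centring moved the median of all genes from -0.09 to 0.30 for Diff minus ESC (3675 higher and 3403 lower, against 4206 and 1561) and from 0.00 to -0.39 for nEnd minus XEN (2828 and 3838, against 1551 and 5010). It gave 2775 higher and 1958 lower for EpiSC minus NACL, against 3122 and 3766, 3534 and 1333 for the naive less the primed response, against 3426 and 2558, and 2679 and 762 for Diff minus ESC, less NACL minus 2iL, against 2645 and 2420. Between Late and Mid the authors' deposited normalized values gave 528 higher and 704 lower.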
